A study of Bos taurus with 3 samples.

Results

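The insulin-like growth factor (IGF) system was followed here through 10 genes, the ligands IGF1 and IGF2, the receptors IGF1R and IGF2R, and the binding proteins IGFBP2, IGFBP3, IGFBP4, IGFBP5, IGFBP6 and IGFBP7. The members were chosen by gene symbol, and all 10 were found among the 27270 gene rows of each matrix. The samples were rumen tissue of 3 newborn (NB) Holstein calves taken 1 day after birth, without the outer muscle layers, dissociated and sequenced as 1 droplet library of 3′ ends per calf. The labels give no treatment and the calves were of 1 age, so the comparisons below are between cell types and between cells within the same calves. The adult libraries of the study were not analysed here.

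IGF1 and IGF2 are small secreted growth factors that signal through IGF1R, a receptor tyrosine kinase, whereas IGF2R takes up IGF2 for degradation in lysosomes and also carries lysosomal enzymes. The IGF binding proteins hold the ligands outside the cell, lengthen their life and control how much reaches the receptors, and proteases release the ligands from them. IGFBP6 prefers IGF2, and IGFBP7 is a more distant relative that binds IGFs weakly and is best known from blood vessels. The rumen wall is lined by a stratified squamous epithelium on a stroma of fibroblasts, vessels and immune cells.

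A barcode was used as a cell if it had 500 to 4000 detected genes, no more than 50000 unique molecular identifiers (UMIs), no more than 40% of them mitochondrial, and no doublet call. This left 4695, 9746 and 9601 cells in calves 1, 2 and 3, with median depths of 10170, 6481.5 and 7384 UMIs per cell. Between 21 and 37 barcodes were shared by a pair of libraries. The 24042 cells were sorted by marker genes into epithelial-like (21133), endothelial-like (1331), fibroblast-like (468), mural-like (316) and immune-like (794) cells, called below by these names without the ending; the names were rebuilt from clusters and are not the authors' annotation. Levels are UMIs of a gene per 10000 UMIs summed over all cells of a class in a calf, and shares are percentages of cells with at least 1 UMI. Each class carried its own markers: mean levels were 46.5 for KRT5 in epithelial cells, 6.61 for PECAM1 in endothelial cells, 110 for COL1A1 in fibroblasts, 48.9 for ACTA2 in mural cells and 4.07 for PTPRC in immune cells.

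Calf 1 was short of stroma. It held 79 endothelial cells, 16 fibroblasts, 6 mural and 10 immune cells, against 554, 228, 118 and 69 in calf 2 and 698, 224, 192 and 715 in calf 3. Its stromal cells also carried more epithelial RNA: the summed level of 8 epithelial markers was 159.69 in its mural cells and 65.76 in its fibroblasts, against 188.89 in its epithelial cells. The same sum was 16.69 and 8.88 in the mural cells of calves 2 and 3 and 20.03 and 9.84 in their fibroblasts. The 6 mural cells of calf 1 were left out of the tests, and its fibroblast values rest on few cells. The tests compared groups of cells within calves. Their p-values weigh a difference within calves against a spread estimated over all groups of the same fit. They do not measure how far the calves differed in level. Mural cells entered the tests from calves 2 and 3 only.

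IGF2 was highest in fibroblasts, followed by endothelial and mural cells. Its level in fibroblasts was 32.5, 40.7 and 56.8 in calves 1, 2 and 3, with a mean of 43.3 ± 12.4 (SD, n = 3). In endothelial cells it was 12.8, 16.7 and 20.4, and in mural cells 9.58, 13.6 and 16. The fibroblasts of each calf stood above every endothelial and mural value. Epithelial cells had 0.784, 0.623 and 0.614 and immune cells 0, 0.679 and 0.182, so that these classes overlapped with each other and lay below all stromal values. For thinned shares, cells with at least 2000 UMIs were thinned to 2000, and shallower cells were left out. This left out 5, 152 and 117 of the 16, 228 and 224 fibroblasts of calves 1, 2 and 3, so thinned fibroblast shares describe the deeper cells only. Among thinned cells, IGF2 was found in 100%, 96.1% and 99.1% of fibroblasts (unthinned 100%, 93.0% and 97.8%). It was found in 70.4%, 84.6% and 86.7% of thinned endothelial cells (unthinned 92.4%, 92.6% and 95%). In epithelial cells the thinned shares were 14.4%, 12.2% and 11.7% (unthinned 46.3%, 30.0% and 32.5%), with exact Clopper-Pearson 95% intervals from 13.4% to 15.5% in calf 1, from 11.5% to 12.9% in calf 2 and from 11% to 12.4% in calf 3. Immune cells had thinned IGF2 shares of 4.92% in calf 2 and 2.72% in calf 3. Their median depths there were 5119 and 4591 UMIs, against 6700 and 7881.5 in epithelial cells. In calf 1, 0 of 7 thinned immune cells held IGF2, which allows a share of up to 42.9%. Intervals and limits of this kind cover counting error only.

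The class comparison was run with edgeR's quasi-likelihood test on the UMI sums of 14 calf and class groups, with the calf as a block and Benjamini-Hochberg adjustment over all 7967 genes tested. Of the 10 members 9 passed the filter on low counts, and IGF1R did not. In endothelial against epithelial cells 48.9% of all genes were called (25.5% higher and 23.4% lower), and 6 of the 9 members were, 4 higher and 2 lower. IGF2 was higher in endothelial than epithelial cells by 4.19 ± 0.37 on the log2 scale (SE, adjusted p = 1.47e-08), in fibroblasts by 5.56 ± 0.40 (adjusted p = 1.13e-09) and in mural cells by 3.95 ± 0.40 (adjusted p = 2.08e-07). It was lower in immune cells by -1.46 ± 0.44 (adjusted p = 0.00933), a call that rested on calf 3 (-0.88 without it, adjusted p = 0.132). Within the stroma IGF2 was lower in endothelial cells than in fibroblasts (-1.37 ± 0.33, adjusted p = 0.00341). In mural cells it was also lower than in fibroblasts (-1.61 ± 0.39, adjusted p = 0.00878; without calf 2 adjusted p = 0.0694).

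Epithelial cells, the most numerous class, had low IGF2 levels but together held 84.7%, 39.8% and 28.0% of all IGF2 UMIs of the calves, and endothelial cells 11.1%, 38.6% and 47.9%. There were 165, 42.7 and 56.6 IGF2 UMIs per IGFBP7 UMI in epithelial cells and 1.59, 2.90 and 2.40 in the summed stromal cells. In the immune cells of calves 2 and 3 the same ratio was 12.5 and 3.61, from only 2 and 18 IGFBP7 UMIs. The part of stromal RNA in the epithelial IGF2 values was not tested.

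IGF1 was scarce and was seen mostly in fibroblasts. Fibroblasts held 0, 9 and 27 IGF1 UMIs in the 3 calves, which are levels of 0, 0.207 and 0.565, and the 21133 epithelial cells held 1, 5 and 0. The 0 in calf 1 comes from 16 cells and allows a level of up to 0.577. IGF1 was found in 7.90% of thinned fibroblasts in calf 2 and 9.35% in calf 3 (unthinned 3.95% and 9.38%). The other classes had between 0 and 10 UMIs per calf, the 10 being in the 715 immune cells of calf 3. IGF1 was higher in fibroblasts than in epithelial cells (9.19 ± 1.14, adjusted p = 2.32e-06), endothelial cells (lower there by -6.66 ± 1.25, adjusted p = 3.45e-04) and mural cells (lower there by -4.92 ± 1.51, adjusted p = 0.0343). It was also higher in immune than in epithelial cells (5.71 ± 1.29, adjusted p = 0.00105). The sizes of these differences are rough, since the classes set against each other held few IGF1 UMIs. Epithelial cells held 6 in all, endothelial cells 1, 1 and 0, immune cells 0, 1 and 10, and mural cells of calves 2 and 3 held 1 and 0. IGF1 did not pass the filter on low counts without calf 3 or with doublets kept.

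**Figure D1:**
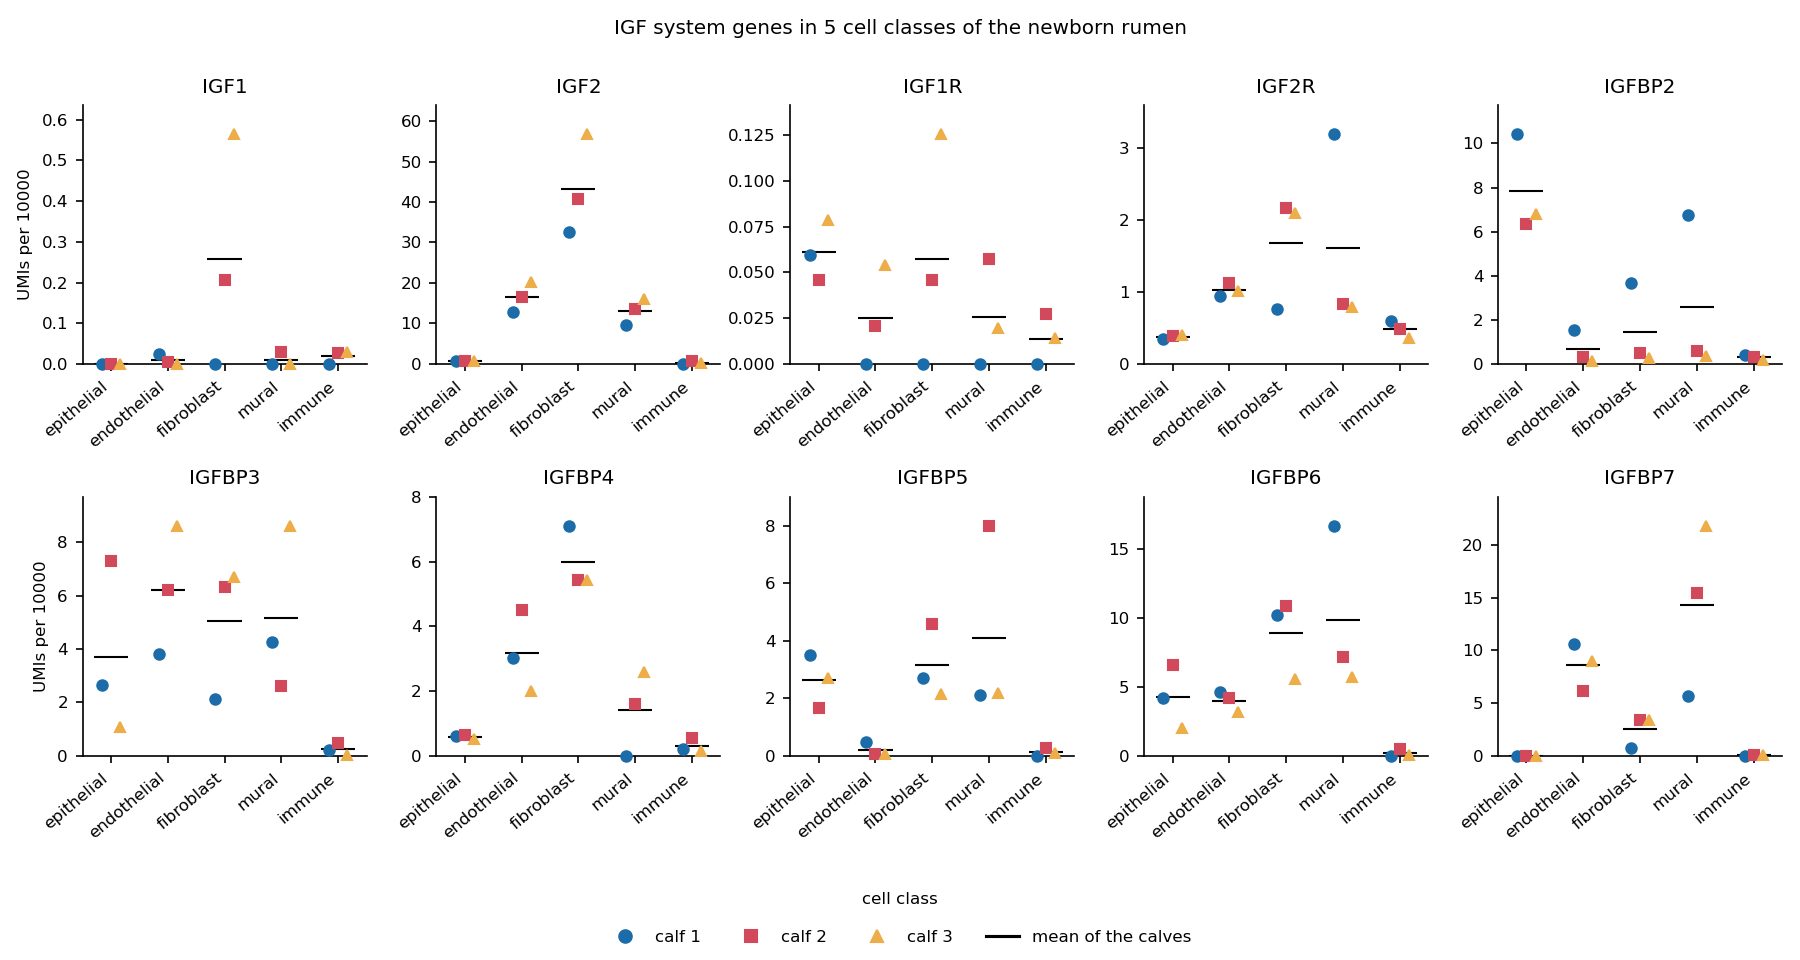
Level of each of the 10 members (vertical axis, UMIs per 10000, own scale per gene) in the 5 cell classes, 1 point per calf and a line at the mean of the calves. IGF2 stands highest in fibroblasts (mean 43.3), IGFBP2 in epithelial cells (7.86) and IGFBP7 in mural cells (14.3).

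IGF1R, the signalling receptor, was low in every class. Its level in epithelial cells was 0.060, 0.046 and 0.079, from 300, 307 and 537 UMIs, and levels in all other classes lay between 0 and 0.126. Thinned IGF1R shares in epithelial cells were 1.31%, 1.17% and 1.46% (unthinned 6.37%, 3.40% and 6.63%). IGF1R did not pass the filter on low counts, and differences between classes could not be tested at this depth.

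IGF2R, the clearing receptor, was detected in all 5 classes. Its level was 0.349, 0.386 and 0.403 in epithelial cells and 0.940, 1.125 and 1.007 in endothelial cells, with no overlap. Fibroblasts had 0.769, 2.160 and 2.093, of which the value of calf 1 rests on 16 cells. IGF2R was higher than in epithelial cells by 1.02 ± 0.21 in endothelial cells (adjusted p = 4.80e-04) and by 1.89 ± 0.24 in fibroblasts (adjusted p = 2.49e-06). It was lower in endothelial cells than in fibroblasts (-0.87 ± 0.24, adjusted p = 0.00792; 0.312 without calf 2 and 0.282 without calf 3). In mural cells the levels of calves 2 and 3 were 0.829 and 0.797, and the difference from epithelial cells did not pass (0.62 ± 0.28, adjusted p = 0.0979). Against fibroblasts IGF2R was lower in mural cells (-1.27 ± 0.29, adjusted p = 0.00504; 0.229 without calf 2 and 0.258 without calf 3).

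IGFBP2, one of the major IGF carriers, was highest in epithelial cells. Its epithelial level was 10.4, 6.34 and 6.80 (mean 7.86 ± 2.24, SD, n = 3), and 79.8%, 60.3% and 68.6% of thinned epithelial cells held it (unthinned 94.7%, 86.0% and 93.1%). Endothelial cells had 1.53, 0.324 and 0.131, fibroblasts 3.65, 0.482 and 0.272, mural cells 6.74, 0.600 and 0.350, and immune cells 0.399, 0.299 and 0.179. Every value lay below the epithelium of the same calf, and calf 1 was the highest in each of these classes. Its immune value rests on 2 UMIs in 10 cells. Calf 1 also had the highest summed epithelial markers in endothelial, fibroblast and mural cells. In immune cells that sum was 8.97, 14.1 and 7.21, highest in calf 2. IGFBP2 was lower than in epithelial cells by -4.70 ± 0.43 in endothelial cells (adjusted p = 2.61e-08), by -3.83 ± 0.46 in fibroblasts (adjusted p = 1.49e-06), by -3.92 ± 0.53 in mural cells (adjusted p = 8.51e-06) and by -4.92 ± 0.48 in immune cells (adjusted p = 6.42e-08).

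IGFBP2 UMIs outside the epithelium were set against the epithelial marker UMIs of the same cells. Per 100 UMIs of the 8 epithelial markers there were 5.52, 3.03 and 3.98 IGFBP2 UMIs in epithelial cells. There were 5.03, 3.02 and 2.33 in endothelial cells, 5.56, 2.41 and 2.77 in fibroblasts, 4.22, 3.60 and 3.94 in mural cells and 4.44, 2.11 and 2.49 in immune cells. The fibroblasts of calf 1 and the mural cells of calf 2 lay above the epithelium of their calf, and the other values lay below it. The part of epithelial RNA in the IGFBP2 values outside the epithelium was not tested.

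IGFBP5 is a binding protein that also attaches to extracellular matrix. It was present in epithelial, fibroblast and mural cells and low in endothelial and immune cells. Its level in epithelial cells was 3.51, 1.67 and 2.71. Endothelial cells had 0.470, 0.074 and 0.043, fibroblasts 2.69, 4.60 and 2.14, and mural cells of calves 2 and 3 had 8.0 and 2.18. Epithelial and fibroblast values thus overlapped, whereas endothelial cells lay below every epithelial value. IGFBP5 was lower in endothelial than in epithelial cells (-5.02 ± 0.57, adjusted p = 3.81e-07) and in immune than in epithelial cells (-4.34 ± 0.61, adjusted p = 8.20e-06). It was lower in endothelial cells than in fibroblasts (-4.92 ± 0.60, adjusted p = 2.48e-06), and it was the only member called between mural and endothelial cells, where 23.5% of all genes were called, 11.4% higher and 12.1% lower (5.63 ± 0.63 higher in mural cells, adjusted p = 1.18e-06). Per 100 epithelial-marker UMIs endothelial cells held 1.54, 0.689 and 0.759 IGFBP5 UMIs and epithelial cells 1.86, 0.799 and 1.58, while fibroblasts of calves 2 and 3 held 22.9 and 21.7. In the genome list of ARS-UCD2.0, IGFBP5 and IGFBP2 are direct neighbours.

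IGFBP7 was highest in endothelial and mural cells. The mural class was led by muscle genes such as ACTA2, MYH11, ACTG2 and DES, and whether its cells lay in vessel walls was not tested. Its level was 10.6, 6.10 and 9.02 in endothelial cells (mean 8.56 ± 2.27, SD, n = 3) and 5.68, 15.5 and 21.8 in mural cells. It was 0.769, 3.35 and 3.41 in fibroblasts and 0.005, 0.015 and 0.011 in epithelial cells. All endothelial values lay above all fibroblast values, and those above all epithelial ones. IGFBP7 was found in 91.8% and 98.4% of thinned mural cells of calves 2 and 3 (unthinned 97.5% and 97.9%), in 71.8%, 63.0% and 70.7% of endothelial cells (unthinned 77.2%, 75.8% and 78.2%), and in 0.090%, 0.281% and 0.131% of epithelial cells (unthinned 0.524%, 1.06% and 0.926%). It was higher than in epithelial cells by 9.41 ± 0.49 in endothelial cells (adjusted p = 6.93e-12), 10.32 ± 0.51 in mural cells (adjusted p = 8.14e-12) and 7.69 ± 0.46 in fibroblasts (adjusted p = 9.15e-11). Compared with fibroblasts, IGFBP7 was higher in endothelial cells (1.73 ± 0.38, adjusted p = 0.00150) and in mural cells (2.63 ± 0.40, adjusted p = 1.30e-04). Mural and endothelial cells did not differ past the threshold (0.91 ± 0.41, adjusted p = 0.134; 1.27 without calf 1, adjusted p = 0.00193). The higher value in immune than in epithelial cells (1.96 ± 0.65, adjusted p = 0.0169) rests on levels of 0, 0.054 and 0.050 and was not called without calf 3 (adjusted p = 0.301).

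IGFBP4, an inhibitory binding protein cleaved by the protease PAPPA, followed IGF2 into the stroma. Fibroblasts had levels of 7.12, 5.45 and 5.44, endothelial cells 3.02, 4.49 and 2.00, and epithelial cells 0.610, 0.631 and 0.503. The order fibroblast, endothelial, epithelial held in each calf, and the 3 ranges did not overlap. IGFBP4 was higher than in epithelial cells by 2.94 ± 0.31 in fibroblasts (adjusted p = 2.77e-07) and by 2.01 ± 0.29 in endothelial cells (adjusted p = 9.28e-06). In mural cells it was higher by 1.58 ± 0.34 (adjusted p = 0.00121; 0.88 without calf 3, adjusted p = 0.200), and in immune cells lower by -1.46 ± 0.39 (adjusted p = 0.00396; -0.83 without calf 3, adjusted p = 0.184). The lower IGFBP4 of endothelial cells against fibroblasts (-0.93 ± 0.30, adjusted p = 0.0228) was not called without calf 1 (adjusted p = 0.146) or calf 3 (adjusted p = 0.255). The same held for mural cells against fibroblasts (-1.36 ± 0.36, adjusted p = 0.0144) without calf 1 (adjusted p = 0.0546) or calf 2 (adjusted p = 0.355).

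IGFBP3, the main IGF carrier of blood plasma, and IGFBP6 were present in epithelium and stroma alike and differed among the calves. The epithelial IGFBP3 level was 2.67 in calf 1, 7.31 in calf 2 and 1.09 in calf 3, and endothelial cells had 3.83, 6.23 and 8.62. The epithelial range thus spanned most of the endothelial one, with calf 2 high in the epithelium and calf 3 high in the endothelium. IGFBP3 was not called in endothelial (0.44 ± 0.57), fibroblast or mural cells against epithelial cells. Its direction in mural cells turned with the calves used (-1.77 without calf 3, adjusted p = 0.00171, and 1.54 without calf 2, adjusted p = 0.0420), and the endothelial difference passed without calf 2 (1.24, adjusted p = 0.0174).

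The epithelial IGFBP6 level was 4.18, 6.57 and 2.00, again highest in calf 2 and lowest in calf 3. Endothelial cells had 4.60, 4.21 and 3.15 and fibroblasts 10.2, 10.9 and 5.59. The endothelial range lay inside the epithelial one, and fibroblasts stood above the epithelium of the same calf in 3 of 3 calves. The fibroblast difference did not pass (0.71 ± 0.30, adjusted p = 0.0673; with median-of-ratios factors adjusted p = 0.0296 and with DESeq2 adjusted p = 0.0486). IGFBP6 was lower in endothelial cells than in fibroblasts (-1.06 ± 0.31, adjusted p = 0.0123), a call lost without calf 1 (adjusted p = 0.0514) or calf 2 (adjusted p = 0.161).

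Immune cells were low for both. IGFBP3 was lower there than in epithelial cells by -5.13 ± 0.87 (adjusted p = 6.51e-05) and IGFBP6 by -4.71 ± 0.42 (adjusted p = 2.44e-08). Per 100 epithelial-marker UMIs the immune cells of calves 2 and 3 held 3.45 and 0.544 IGFBP3 UMIs, against 3.49 and 0.638 in epithelial cells, and 3.26 and 1.05 IGFBP6 UMIs, against 3.14 and 1.17. Endothelial cells, in contrast, held 12.6, 58.0 and 153 IGFBP3 UMIs on the same scale.

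Counted over the members, 6 were called in fibroblasts against epithelial cells, 5 higher and 1 lower, where 42.1% of all genes were called (22.3% higher and 19.8% lower). In mural cells 4 were called, 3 higher and 1 lower, where 32.4% of all genes were (17% higher and 15.4% lower). In immune cells 8 were called, 2 higher and 6 lower, where 51.7% of all genes were (26.4% higher and 25.4% lower). Endothelial cells against fibroblasts had 7 called members, 1 higher and 6 lower, with 31.2% of all genes called (15% higher and 16.2% lower). Mural cells against fibroblasts had 5, 1 higher and 4 lower, with 13.7% of all genes called (6.31% higher and 7.42% lower). The median log2 difference of the 9 members was 1.02 in endothelial cells, 1.89 in fibroblasts, 0.62 in mural and -1.46 in immune cells, and that of all genes tested lay between -0.06 and 0.00. IGFBP2 was called lower and IGFBP7 higher in all 4 classes against the epithelium.

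**Figure D2:**
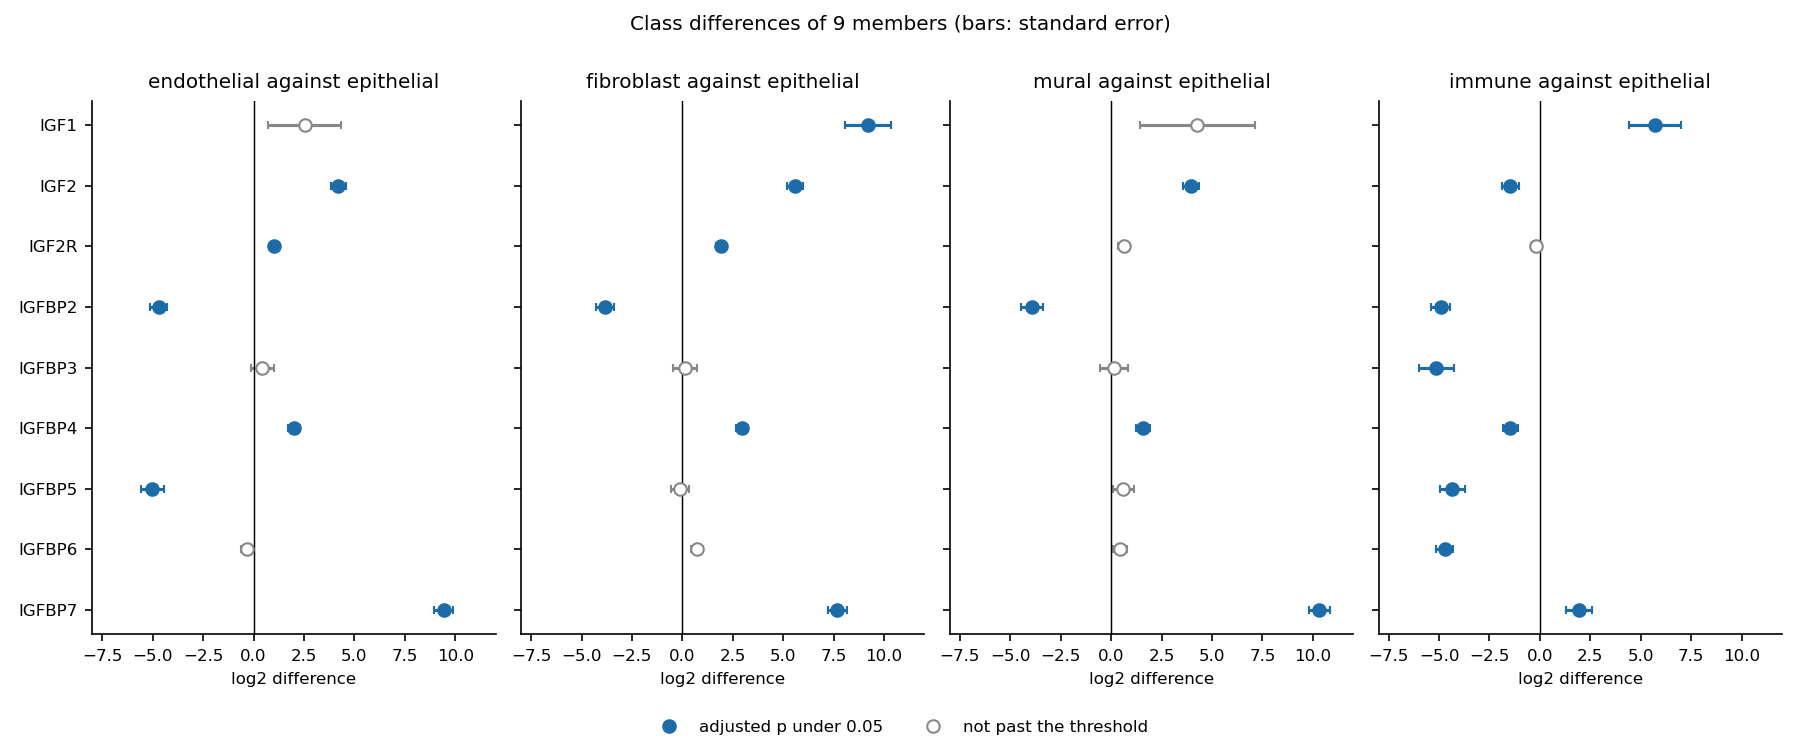
Log2 difference (edgeR, error bars 1 SE) of the 9 tested members in endothelial, fibroblast, mural and immune cells against epithelial cells, with filled points for adjusted p under 0.05. IGFBP7 lies at 9.41 and IGFBP2 at -4.70 in endothelial cells, on opposite sides of 0.

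Members differed in level between finer clusters of the stroma. These clusters were made without correction for calf, and some came mostly from 1 calf. The members were left out of the genes used for clustering, and cluster values are given as descriptions. Among endothelial cells, a cluster led by CLDN5, CYP1A1 and SOX17 (16, 101 and 237 cells in calves 1, 2 and 3) had IGF2 levels of 39.2, 46.0 and 39.3. A cluster led by CCL14, PLVAP and VWF (63, 452 and 43 cells) had 7.72, 11.6 and 11.4. The ranges lay far apart, and the CLDN5 cluster lay within the range of the fibroblasts.

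IGFBP3 followed the same split, at 19.6, 15.5 and 21.5 in the CLDN5 cluster and 0.82, 4.64 and 6.80 in the CCL14 cluster. IGFBP7 went the other way in calf 1 and calf 2, with 5.55, 4.54 and 5.55 in the CLDN5 cluster and 11.5, 6.36 and 5.09 in the CCL14 cluster, so that the ranges overlapped. A further endothelial cluster led by TFPI2 and TM4SF18 came from calf 3 in 418 of its 419 cells and had levels of 11.4 for IGF2, 2.18 for IGFBP3 and 11.1 for IGFBP7. The different mix of these clusters stands beside the endothelial IGFBP3 differences among calves given above, and its part in them was not tested.

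Fibroblasts fell into a cluster led by LUM, CXCL14 and APOD (161 and 152 cells in calves 2 and 3) and a cluster led by COL1A2, COL1A1, MFAP5 and DLK1 (67 and 72 cells), and calf 1 had under 10 cells of each. IGF1 was at 0.65 and 1.39 in the DLK1 cluster and at 0 and 0 in the LUM cluster. IGF2 was 68.2 and 75.9 against 27.9 and 43.7, and IGF2R 4.34 and 3.08 against 1.14 and 1.41. Both ligands and the clearing receptor were thus higher in the DLK1 cluster in each of the 2 calves.

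The binding proteins divided between the 2 kinds of fibroblast. IGFBP6 was higher in the DLK1 cluster (20.0 and 9.85 against 6.63 and 2.65), whereas IGFBP4 was higher in the LUM cluster (6.46 and 7.60 against 3.26 and 2.31). IGFBP3 was 6.73 and 10.5 in the LUM cluster and 5.50 and 1.18 in the DLK1 cluster. With 2 calves these differences were not tested.

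**Figure D3:**
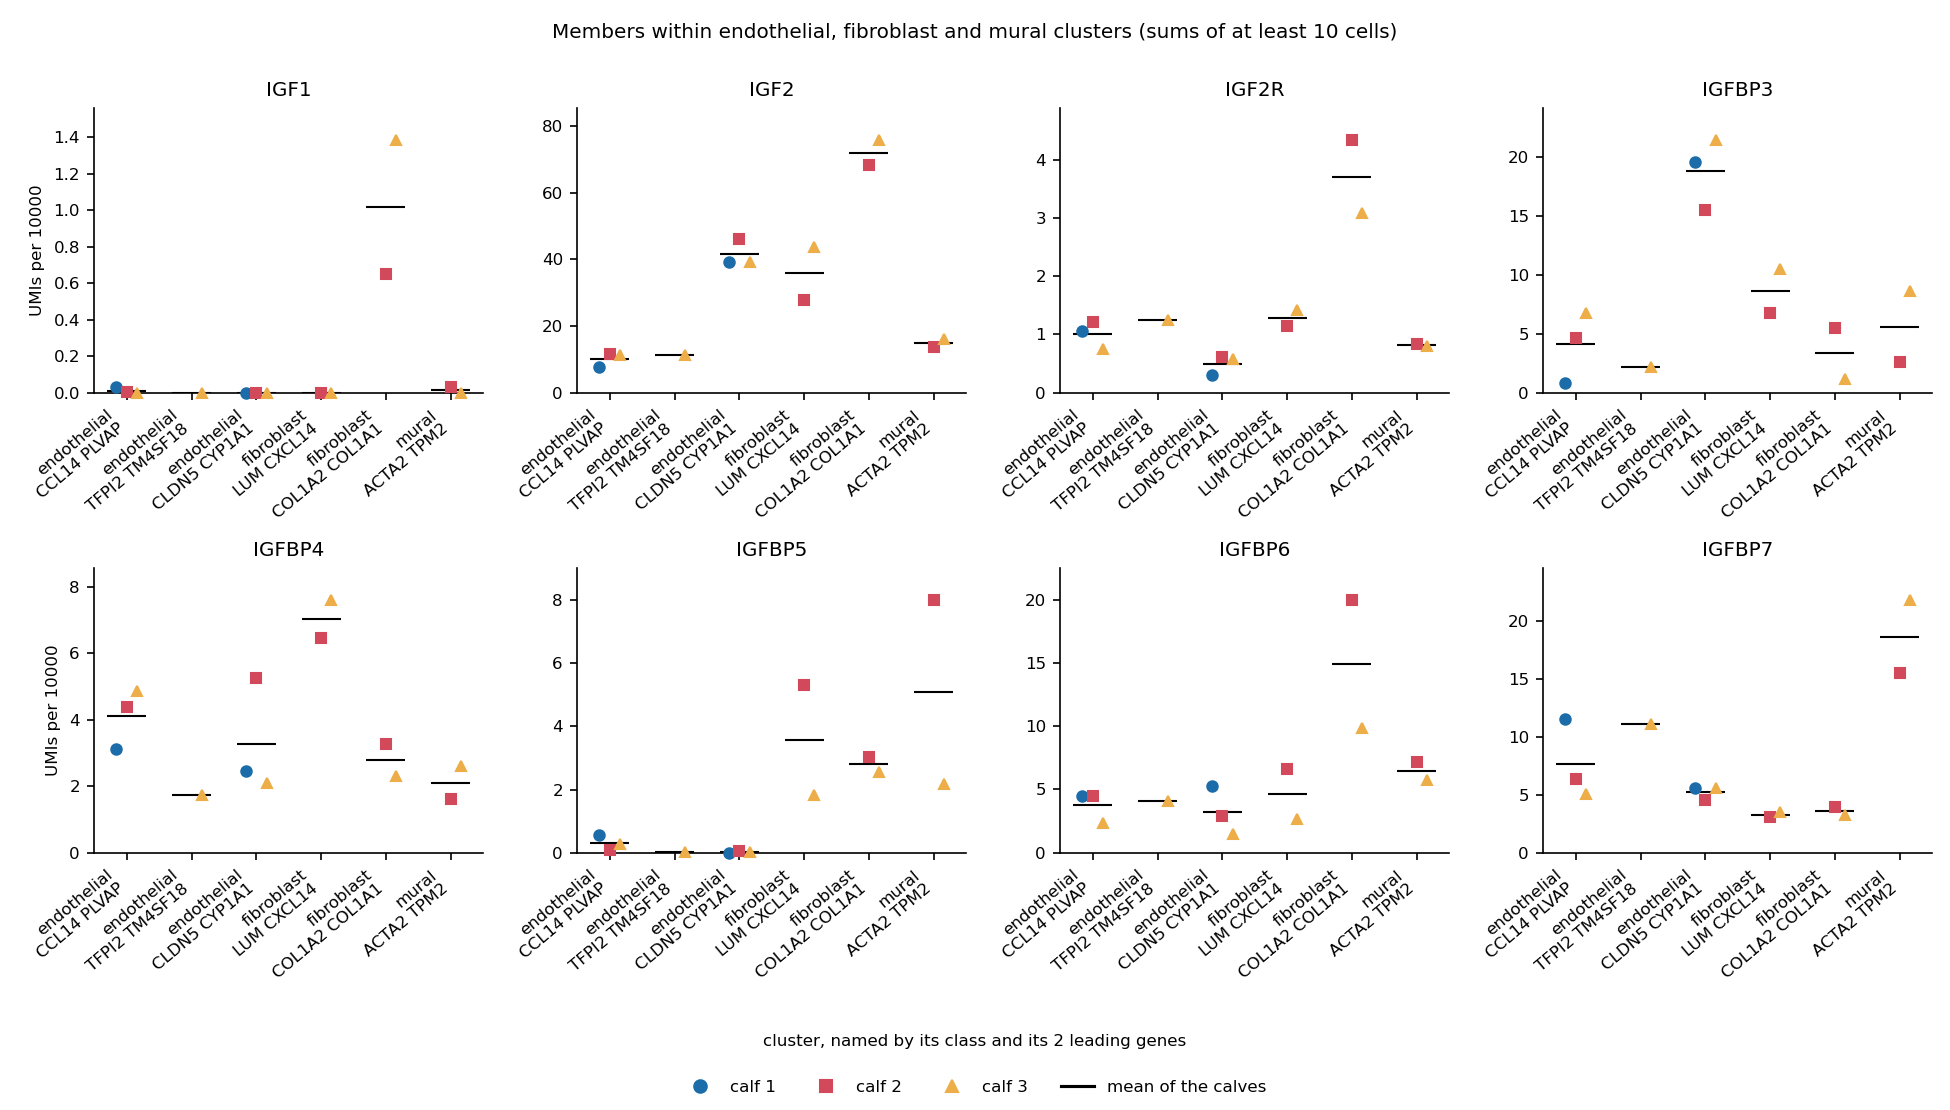
Levels (UMIs per 10000) of the members in the finer stromal clusters, 1 point per calf with at least 10 cells in the cluster and a line at their mean. The endothelial cluster led by CLDN5 holds IGF2 at 39.2 to 46.0 and the fibroblast cluster led by COL1A2 and COL1A1, called the DLK1 cluster in the text, holds it at 68.2 and 75.9.

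Within the epithelium, 797 cells formed a suprabasal-like cluster marked by SPINK5, A2ML1 and KRTDAP (242, 432 and 123 cells in calves 1, 2 and 3), and 1266 cells formed a mitotic-like cluster marked by CENPF, TOP2A and MKI67 (638, 228 and 400). No cluster was led by basal markers, so both were compared with all other epithelial cells of the same calves (3704, 8117 and 7249), a reference chosen after the clusters were seen. The suprabasal-like cells had less of nearly every member. Of the 8 members tested, 7 were lower and the other, IGF2R, did not pass, where 44.3% of the 10597 genes tested were called, 22.6% higher and 21.6% lower. The median log2 difference of the members was -1.54 and that of all genes -0.03.

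IGF2 in suprabasal-like cells was at 0.130, 0.128 and 0.050, against 0.858, 0.679 and 0.649 in the other epithelial cells (-2.53 ± 0.27, adjusted p = 6.51e-05). IGFBP5 was at 0.445, 0.267 and 0.951 against 4.21, 1.84 and 2.84 (-2.35 ± 0.27, adjusted p = 1.00e-04). For both genes the groups did not overlap.

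IGFBP6 was at 0.543, 2.16 and 0.540 against 4.94, 6.87 and 2.08 (-2.11 ± 0.27, adjusted p = 1.90e-04), and IGFBP2 at 1.98, 3.25 and 1.97 against 11.7, 6.45 and 7.16 (-1.64 ± 0.28, adjusted p = 0.00110). IGFBP6 was lower within each calf although calf 2 lay above the other cells of calf 3, and IGFBP2 did not overlap at all. IGFBP3 was at 0.719, 2.92 and 0.721 against 3.05, 7.54 and 1.11 (-1.21 ± 0.27, adjusted p = 0.00499), lower within each calf.

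The smallest of these differences was that of IGFBP4, at 0.313, 0.251 and 0.411 against 0.672, 0.668 and 0.508 (-0.78 ± 0.19, adjusted p = 0.00758; without calf 2 adjusted p = 0.0973 and with doublets kept adjusted p = 0.174). IGF1R was lower too, at 0.021, 0.014 and 0.029 against 0.063, 0.047 and 0.082 (-1.45 ± 0.32, adjusted p = 0.00473). IGF2R was at 0.372, 0.381 and 0.259 against 0.345, 0.389 and 0.407 and did not pass (0.07 ± 0.17, adjusted p = 0.763).

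Mitotic-like cells had less of some members. Of the 8 tested, 4 were lower and the others did not pass, where 30.7% of all genes were called, 15.1% higher and 15.6% lower. IGFBP5 was at 1.60, 0.547 and 1.50 against 4.21, 1.84 and 2.84 (-1.56 ± 0.25, adjusted p = 0.00151). It was lower in each calf without overlap, and its call held without each calf in turn. IGF2 (-0.97 ± 0.22, adjusted p = 0.00945; without calf 3 adjusted p = 0.0890), IGFBP4 (-0.59 ± 0.18, adjusted p = 0.0293) and IGFBP6 (-0.76 ± 0.25, adjusted p = 0.0410) were also lower. IGFBP4 was not called without calf 1 (adjusted p = 0.146) or calf 2 (adjusted p = 0.0921), nor IGFBP6 without calf 1 (adjusted p = 0.118) or calf 3 (adjusted p = 0.190). In calf 2 the mitotic-like cells had more IGFBP6 (7.84 against 6.87) and more IGFBP3 (10.1 against 7.54) than the others, while calves 1 and 3 had less of both.

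Depth and mitochondrial share moved with these layers. Median UMIs per cell were 14019.5, 10115.5 and 10503 in suprabasal-like, 14035, 11040 and 12770.5 in mitotic-like and 9823, 6610 and 7790 in the other epithelial cells. Median mitochondrial shares were 8.12%, 9.55% and 8.69%, 7.43%, 9.12% and 10.1%, and 5.09%, 5.45% and 5.49% in the same order. Their part in the member differences was not tested.

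**Figure D4:**
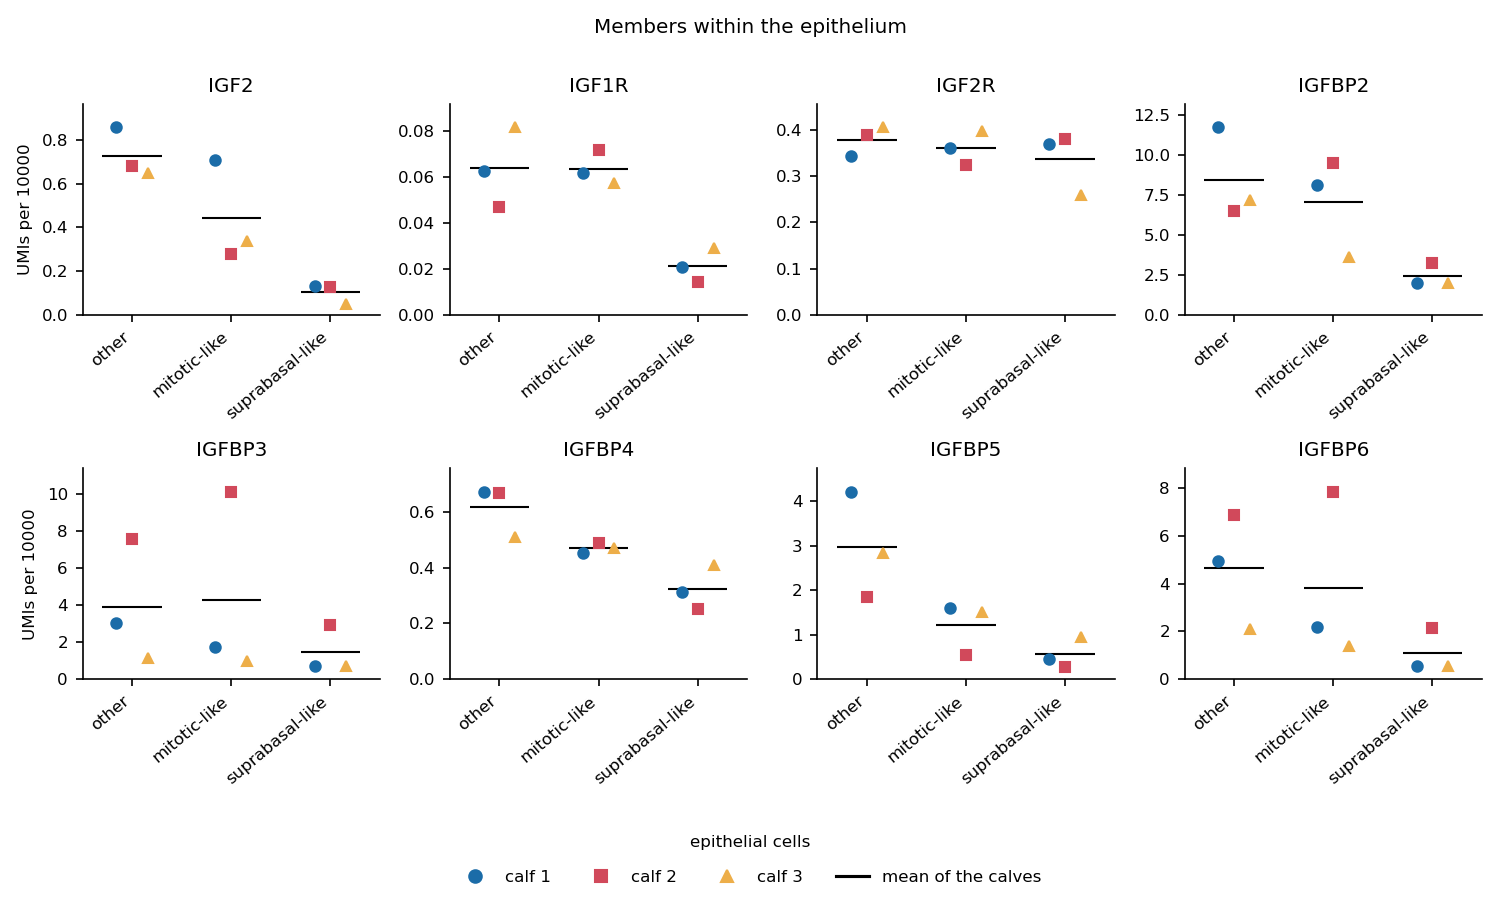
Levels (UMIs per 10000, own scale per gene) of the members in other, mitotic-like and suprabasal-like epithelial cells, 1 point per calf and a line at the mean. IGF2 falls from between 0.649 and 0.858 in the other cells to between 0.050 and 0.130 in suprabasal-like cells, while IGF2R stays between 0.259 and 0.407.

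IGFBP3 differed among the remaining epithelial clusters. A cluster led by FABP4 and CYP26A1 (30, 346 and 162 cells) had IGFBP3 levels of 6.86, 17.5 and 3.58, and a cluster in which IGFBP3 itself led, with IL1R2 and CA1 (165, 871 and 476 cells), had 3.18, 13.1 and 3.00. A cluster led by TM4SF1 and ERRFI1 (355, 1091 and 1287 cells) had 3.86, 12.8 and 1.03 and held the most IGFBP3 UMIs of calf 2, 12766. In calf 1 the most lay in the cluster led by LY6D (1328, 39 and 169 cells), with 5330 UMIs and levels of 3.89, 8.86 and 1.84. A cluster of S-phase genes led by UHRF1 and MCM3 had 2.56, 12.1 and 1.45. A cluster led by PLAC8B and RGS4 had 0.98, 1.04 and 0.39, below all of these in each calf. FABP4 is a fatty acid binding protein, and CA1 is a carbonic anhydrase. A cluster of 97 cells led by TNFRSF6B, CFB and GRP, of which 93 came from calf 2, had an IGFBP3 level of 22.3 there. Calf 2 had the highest IGFBP3 level in each of the 12 clusters with at least 20 cells in all 3 calves, by little in the PLAC8B cluster.

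IGFBP6 in the FABP4 cluster was at 3.02, 16.1 and 2.25 and IGFBP2 at 3.96, 7.25 and 1.83. IGF2 in that cluster was at 1.31, 0.05 and 0.08, with calf 1 apart from the others. Across the 12 or 13 epithelial clusters with at least 20 cells in a calf, the correlation of log2 levels was 0.51, 0.94 and 0.44 for IGFBP3 with IGFBP6, 0.90, 0.78 and 0.54 for IGFBP2 with IGFBP6 and 0.83, 0.68 and 0.61 for IGFBP5 with IGF2. For IGFBP2 with IGFBP3 it was 0.27, 0.64 and -0.35. Clusters of a calf share its library, so these values are descriptions.

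Which members rise together in single epithelial cells was asked with gates. All epithelial cells with at least 2000 UMIs were thinned to 2000 (4445, 8551 and 7618 cells), and cells with at least 2 UMIs of a member were compared with the rest of the same calf by edgeR's quasi-likelihood test across all genes, with the calf as a block. A median of 2 of the 6 binding proteins was found per cell in each calf. None of them was found in 6.91%, 10.7% and 12.3% of cells, and 3 or more in 38.9%, 32.4% and 17.3%. Gates could be run for 6 members, IGF2 and all binding proteins but IGFBP7, and 7 other members were tested in each.

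IGFBP3 and IGFBP6 were higher in each other's cells. IGFBP6-positive cells (981, 2220 and 641) had IGFBP3 levels of 4.36, 12.3 and 1.79, and IGFBP6-negative cells had 2.28, 4.33 and 0.960. The positive cells were higher in each calf, by 1.14 ± 0.11 on the log2 scale (adjusted p = 5.82e-08), in a gate that called 0.936% of 10472 genes (0.325% higher and 0.611% lower). IGFBP3-positive cells (560, 2308 and 283) had IGFBP6 levels of 6.92, 11.1 and 3.30 against 4.08, 4.06 and 1.97 (0.99 ± 0.12, adjusted p = 6.82e-07), where 4.85% of 10739 genes were called (2.18% higher and 2.67% lower). Both calls held without each calf in turn.

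IGFBP2 rose with this pair to a smaller extent. IGFBP2 was at 14.6, 8.95 and 8.45 in IGFBP3-positive cells and at 9.83, 5.07 and 7.17 in negative ones (0.53 ± 0.12, adjusted p = 0.00317). In calf 3 the share of cells with IGFBP2 was the same, 68.6%, on both sides of this gate, and without calf 2 the call was lost (adjusted p = 0.411). In the IGFBP6 gate IGFBP2 was higher by 0.45 ± 0.11 (adjusted p = 0.0251; 0.178 without calf 2 and 0.188 without calf 3). IGFBP2-positive cells (2475, 2679 and 3047) had more IGFBP3 (3.26, 9.71 and 1.16 against 2.08, 4.89 and 0.945; 0.67 ± 0.11, adjusted p = 0.00599) and more IGFBP6 (0.57 ± 0.10, adjusted p = 0.00827). Without calf 1 neither was called (adjusted p = 0.453 and 0.648). Besides these members, LY6D was the only gene higher in IGFBP2-positive cells (0.50 ± 0.10, adjusted p = 0.0258, named after its value was seen), where 0.645% of 10542 genes were called, 0.0285% higher and 0.617% lower. LY6D led an epithelial cluster of which 1328 of 1536 cells came from calf 1.

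IGF2 rose with IGFBP5. IGFBP5-positive cells (863, 566 and 953) had IGF2 levels of 1.02, 0.928 and 1.10, and IGFBP5-negative cells had 0.824, 0.691 and 0.645. The positive cells were higher in 3 of 3 calves without overlap (0.50 ± 0.09, adjusted p = 3.02e-06), where 4.06% of 10221 genes were called (0.969% higher and 3.09% lower). The call was lost without calf 3 (0.36, adjusted p = 0.0537) and with cells thinned to 1000 UMIs (0.42, adjusted p = 0.415). IGF2 has few epithelial UMIs, and in the gate on IGF2 itself (98, 135 and 141 positive cells, 1.2% of 10366 genes called, 0.00965% higher and 1.19% lower) 0 of the members passed by edgeR, 0 at an unadjusted p under 0.05 and 0 by DESeq2, which gave an adjusted p for 4 of the 7, and IGFBP5 was at 0.18 ± 0.13. With positive cells defined by at least 1 UMI, IGFBP5 was higher in the IGF2 gate (0.30, adjusted p = 0.0189). The IGFBP4 gate had 43, 96 and 56 positive cells and called 0 of the 7 members by edgeR, 0 at an unadjusted p under 0.05 and 0 by DESeq2, with 0.2% of 9993 genes called, all lower.

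**Figure D5:**
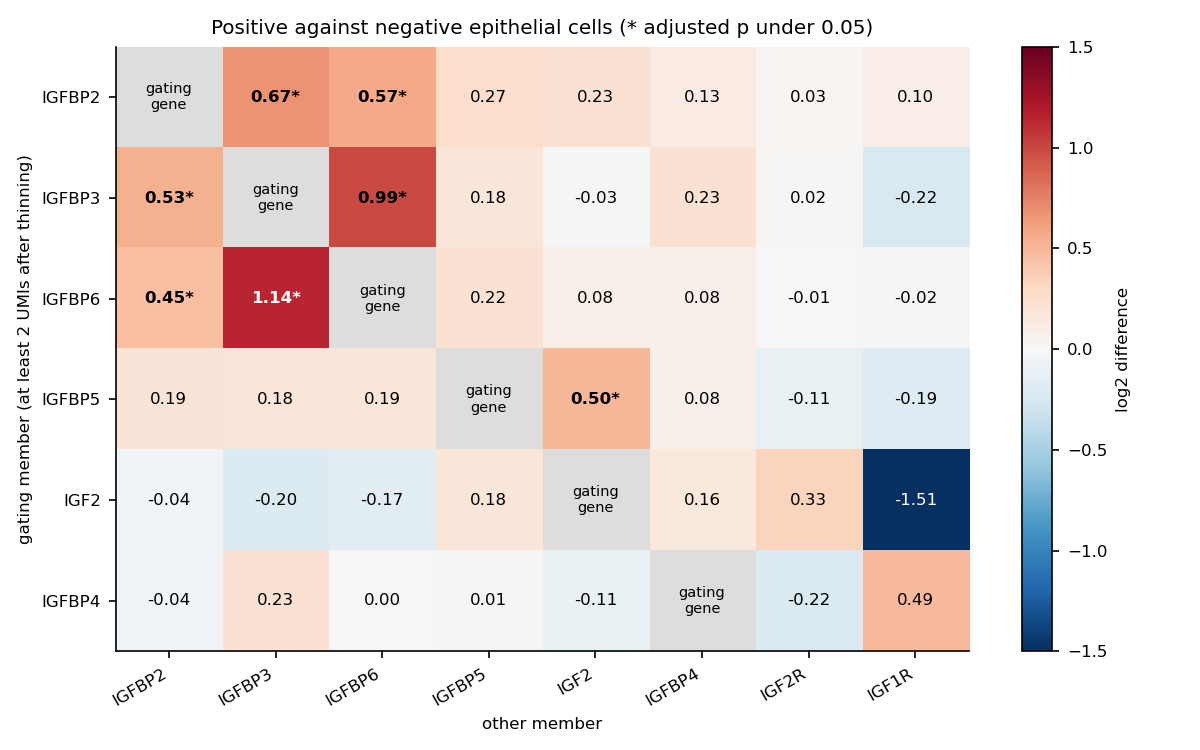
Log2 difference (edgeR, printed and coloured) of each other member (columns) in epithelial cells positive against negative for a gating member (rows), with an asterisk for adjusted p under 0.05. IGFBP3 in the IGFBP6 gate (1.14) and IGFBP6 in the IGFBP3 gate (0.99) have the highest values, and IGF1R in the IGF2 gate (-1.51) rests on few UMIs and did not pass.

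Cells holding both members were also counted, without a fit. The counts use the same thinned cells as the gates, so they describe the pairs again and are not separate support. Both IGFBP3 and IGFBP6 were found in 803, 2410 and 360 thinned epithelial cells, where the separate shares within each calf would give 657, 1890 and 310. The ratio was 1.22, 1.28 and 1.16, and 1.13, 1.11 and 1.12 when the expected number was summed over the epithelial clusters, a step chosen after seeing the data. IGF2 and IGFBP5 were found together in 341, 350 and 411 cells against 299, 288 and 347 expected (ratios 1.14, 1.21 and 1.18, and 1.07, 1.12 and 1.13 over clusters). For IGFBP2 with IGFBP6 the ratios were 1.08, 1.08 and 1.05, and 1.03, 1.03 and 1.03 over clusters. For IGFBP2 with IGFBP3 they were 1.07, 1.12 and 1.00, and 1.02, 1.06 and 1.05 over clusters. Of the 15 pairs of the 6 gated members, 8 lay above the expected number in all 3 calves. The share of pairs of other genes that do so was not computed, so this count is not a trait of the members.

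Depth before thinning did not differ in 1 direction across these gates. IGFBP3-positive and negative cells had medians of 10432.5 and 10443, 7551 and 6534, and 8594 and 7930 UMIs in calves 1, 2 and 3. IGFBP5-positive cells were shallower than negative ones in each calf, with 9436 against 10869, 6467.5 against 6798 and 7416 against 8041. IGF2-positive cells were shallower in each calf too, with 8645.5 against 10488, 6431 against 6772 and 6870 against 7975. The median mitochondrial share of IGFBP3-positive cells was 5.47%, 6.73% and 7.24%, above the 5.37%, 5.31% and 5.56% of negative cells. In IGFBP5-positive cells it was 5.00%, 5.11% and 5.26%, below the 5.50%, 5.64% and 5.68% of negative cells. In IGF2-positive cells it was 6.47%, 4.87% and 4.80% against 5.37%, 5.61% and 5.65%, higher in calf 1 only. The part of depth and mitochondrial share in the gate differences was not tested.

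The genes most like each member over the 14 calf and class sums were named by the correlation of log2(level + 0.1), among 7966 genes. IGFBP2 came closest to DAPL1 (r = 0.992), COL17A1 (0.989) and KRT5 (0.989), the latter pair being a collagen and a keratin of basal epithelial cells. IGF2 came closest to SPARC (0.981), a matrix glycoprotein, and to KLHL20 and PRXL2C, and IGFBP4 came closest to IGF2 itself (0.961). IGFBP7 was most like HOXB2 (0.982), DLC1 and TMEM47, IGF1 most like RET (0.975), ITGA10 and OSR1, and IGF2R most like NID1 (0.953), a basement membrane protein, CLCC1 and CD99. For the remaining members the genes were SPATS2L (0.927), AOPEP and PGRMC2 for IGFBP3, RAB34 (0.961), TRIP6 and PRXL2A for IGFBP5, and UBE2E3 (0.951), SEPTIN10 and GPC1 for IGFBP6. The sums share calves and cell classes, so these correlations describe the class pattern only.

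Of the 20 listed carriers and proteases around the IGF system 9 were tested. In fibroblasts 6 of them were higher than in epithelial cells, against 22.3% of all genes, with a median of 1.60. The largest were MMP2 (11.40), HTRA3 (10.50) and PRSS23 (5.35), all proteases. In endothelial cells 5 were higher, against 25.5% of all genes, and 1 lower, led by PRSS23 (8.81 ± 0.32), STC1 (6.86 ± 0.40) and MMP2 (5.54 ± 0.49). STC1 is stanniocalcin, an inhibitor of the PAPPA proteases. In mural cells 4 were higher, against 17% of all genes, and 1 lower, led by PRSS23 (7.63), HTRA3 (6.60) and MMP2 (6.23). In immune cells 4 were also higher, against 26.4% of all genes, and 1 lower, with ADAM28 higher by 6.47, PRSS23 by 2.91 and HTRA1 lower by -3.52. Suprabasal-like cells had less STC1 (-3.02) and more CTSD (1.03) and LRP1 (1.02) than the other epithelial cells. There 3 of the 5 tested were higher and 2 lower, against 22.6% and 21.6% of all genes.

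Genes of receptor signalling were mixed and, counted over both directions, were called about as often as all genes. Of 32 listed genes 19 were tested, and 7 were higher and 3 lower in endothelial cells, 8 and 2 in fibroblasts, 5 and 3 in mural cells, and 5 and 4 in immune cells, where 48.9%, 42.1%, 32.4% and 51.7% of all genes were called. By direction, 25.5%, 22.3%, 17% and 26.4% of all genes were higher and 23.4%, 19.8%, 15.4% and 25.4% lower. PIK3R2, a regulatory subunit of PI3 kinase, was lower in endothelial (-4.17) and immune cells (-3.63). Others among the 3 largest called differences were SHC1 in endothelial cells (2.12), GRB10 (2.09) and RACK1 (-1.59) in fibroblasts, FOXO1 (-2.82) in mural cells and SOCS2 (-2.44) in immune cells. In mitotic-like cells 7 of the 22 tested were lower and 1 higher, against 15.6% and 15.1% of all genes. They were led by SOCS2 (-0.90), RACK1 (-0.82) and PIK3R1 (-0.70). In suprabasal-like cells 4 were higher and 3 lower, against 22.6% and 21.6% of all genes, led by PIK3CB (1.11), SHC1 (0.77) and PIK3R2 (-0.75).

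Of the growth hormone axis and the messenger RNA binders, 5 of 9 genes were tested between classes. GHR, the growth hormone receptor, was lower in endothelial (-1.97) and immune cells (-5.68) than in epithelial cells and higher in fibroblasts (1.2). STAT5B, which acts downstream of it, was higher in endothelial cells (1.70), fibroblasts (1.87) and immune cells (1.65), and STAT5A in endothelial cells (0.87), fibroblasts (1.15) and immune cells (1.67). IGF2BP3, which binds IGF2 messenger RNA, was lower in fibroblasts (-2.41) and mural cells (-2.43) and higher in immune cells (0.78). STAT5A in fibroblasts and IGF2BP3 in immune cells were named after their values were seen. In all, 2 were higher and 1 lower in endothelial cells, 3 and 1 in fibroblasts and 4 and 1 in immune cells, and 1 was lower in mural cells. Of all genes, 48.9% were called in endothelial cells, 42.1% in fibroblasts, 51.7% in immune and 32.4% in mural cells. Suprabasal-like cells had less GHR (-2.02), IGF2BP2 (-1.41) and JAK2 (-0.65), and mitotic-like cells less STAT5A (-1.06) and IGF2BP2 (-0.83).

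Of the imprinted growth genes, the group to which IGF2 belongs, 10 listed genes were found in the matrices and 7 were tested. In fibroblasts 6 were higher than in epithelial cells, against 22.3% of all genes (median 2.76), led by DLK1 (10.92 ± 0.37), MEST (4.27) and NDN (2.77). In endothelial cells 3 were higher and 1 lower, against 25.5% and 23.4% of all genes, with PEG3 at -1.96, CDKN1C at 1.27 and MEST at 1.26. In mural cells 3 were higher, against 17% of all genes, with MEST at 2.27, NDN at 2.04 and CDKN1C at 1.85. In immune cells 4 were lower, against 25.4% of all genes (median -2.36), led by PEG3 (-5.31), NDN (-2.55) and MEST (-2.36). Within the epithelium CDKN1C, an inhibitor of the cell cycle, was lower in suprabasal-like (-2.85) and mitotic-like cells (-2.58), as was PEG3 (-2.59 and -1.27). NDN was lower in suprabasal-like cells (-1.30), and NNAT was higher in mitotic-like cells (1.27). In the IGFBP3 gate CDKN1C (-1.07 ± 0.16), PEG3 (-0.67), SOCS2 (-0.92) and PIK3R1 (-0.46) were lower and HTRA1 (0.46) and CTSD (0.36) higher in IGFBP3-positive cells, all by edgeR's quasi-likelihood test after Benjamini-Hochberg adjustment. These were 6 of the 43 listed genes tested, in a gate where edgeR called 4.85% of all genes. DESeq2 called 2 of these 6, HTRA1 and CDKN1C. In each of the other gates 0 of the 41 or 44 listed genes tested were called by edgeR and 0 by DESeq2, with 2 to 7 at an unadjusted p under 0.05.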

How the data were processed

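Rumen libraries of 3 newborn Holstein calves (Chromium 3′ v3 chemistry) were analysed from the deposited matrices. The authors deposited raw UMI counts per gene and barcode, made with Cell Ranger 3.1.0 (per the submitters' processing notes), aligned to ARS-UCD1.2 according to the study's methods. The files held 82263092, 89803289 and 106145091 UMIs in 7529, 12043 and 11656 barcodes for calves 1, 2 and 3. The limits on genes, UMIs and mitochondrial share followed the study's methods. The mitochondrial share used 13 named genes. Doublets were scored against simulated doublets, and 3.91%, 8.52% and 8.39% of cells were removed. Cells were clustered (scanpy 1.11.5, leidenalg 0.10.2) without the members and the listed IGF genes, and clusters were classed by marker sets.

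UMI counts were summed per calf and class (at least 10 cells) and tested with edgeR 4.0.16 in R 4.3.3 (glmQLFTest, TMM factors, filterByExpr, calf as a block, Benjamini-Hochberg adjustment over all genes tested in each contrast, threshold 0.05). The block was used because the sums of a calf come from the same animal. Suprabasal-like and mitotic-like cells were compared with the other epithelial cells because no cluster carried the name basal-like, a change from the planned reference. Gates used cells thinned to 2000 UMIs. Shares have exact Clopper-Pearson 95% intervals, and a count of 0 was taken to allow 3 counts. The steps were tested on simulated data.

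All 10 members are named. The 3 genes most like each member, and the 3 called genes with the largest difference in each list and contrast, were named by rule. Some genes that the rule picks are not reported here. Members and lists were chosen with earlier results of these data known. Alternatives were median-of-ratios factors, no filter, DESeq2 1.42.0, no block, each calf left out, other cell minimums, doublets kept, a mitochondrial limit of 20%, other clustering resolutions, gates and thinning depths. The groups come from GEO's labels, and no sequence is shown.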

Additional observations from a re-analysis of the deposited data

How the results depend on the processing

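The 121 member differences, of which 55 were called, were recomputed under the alternatives that apply to each contrast, and 1105 of 1186 recomputed values kept their direction and their side of the threshold, 57 lost the call and 23 gained it. The one reversal was IGFBP3 in mural against epithelial cells without calf 3 (-1.77, against 0.13). A mitochondrial limit of 20% changed 0 of 63. Without the calf as a replicate block 18 of the 55 calls were lost. The members called then fell from 5 to 2 in mural against fibroblast cells, from 4 to 0 in mitotic-like cells, and to 0 in the gates on IGFBP2, IGFBP3, IGFBP5 and IGFBP6. The block changed no other count of members by more than 1.5 times. Without it 2399 of all genes in place of 4690 were called in suprabasal-like cells, 717 in place of 3250 in mitotic-like cells, and 0 in every gate. For mural against fibroblast cells the count over all genes without the block is not given here. The gates therefore rest on comparing cells of the same calf.

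Other counts of members moved as follows. The mitotic-like count was 2 at a clustering resolution of 0.4. With positive cells set at 1 UMI it was 1 in both the IGF2 and IGFBP2 gates. With cells thinned to 1000 UMIs it was 1 in the IGFBP3 gate and 0 in the IGFBP5 gate, which had 2 with median-of-ratios factors. Leaving out 1 calf at a time gave 4 to 9 called members in immune, 6 to 7 in endothelial, 5 to 6 in fibroblast and 4 to 5 in mural cells against epithelial cells, 4 to 5 in endothelial and 2 to 4 in mural cells against fibroblasts, and 1 to 3 in mural against endothelial cells. The ranges were 6 to 7 in suprabasal-like and 2 to 4 in mitotic-like cells, and 0 to 4, 1 to 2, 0 to 3 and 1 to 2 in the gates on IGFBP2, IGFBP3, IGFBP5 and IGFBP6. Shares of all genes called under the same settings are not set beside these counts. The counts therefore describe the fits and are not a trait of the members. The number of members with their highest mean level in epithelial cells was 2 (IGFBP2 and IGF1R) and 1 to 3 without 1 calf. For IGF1R this place rests on the 0 in the 16 fibroblasts of calf 1, which allows a level of up to 0.577. In calves 2 and 3 IGF1R was at 0.0459 and 0.126 in fibroblasts and at 0.0456 and 0.0788 in epithelial cells.

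Counts over all genes moved most in the gates. DESeq2 called 27, 39, 158, 1, 87 and 30 genes in the gates on IGF2, IGFBP2, IGFBP3, IGFBP4, IGFBP5 and IGFBP6, against 124, 68, 521, 20, 415 and 98 by edgeR. With no filter on low counts 6162 in place of 3894 genes were called in endothelial and 6570 in place of 4122 in immune cells, and 219, 152, 54 and 163 in the gates on IGF2, IGFBP2, IGFBP4 and IGFBP6. Median-of-ratios factors gave 67 and 7 in the IGF2 and IGFBP4 gates, cells thinned to 1000 UMIs gave 69, 45, 242, 84 and 65 in the gates on IGF2, IGFBP2, IGFBP3, IGFBP5 and IGFBP6, positive cells set at 1 UMI gave 114 and 35 in those on IGFBP2 and IGFBP4, and keeping doublets gave 7 in that on IGFBP4. The IGFBP4 gate could not be run at 1000 UMIs, where too few cells were positive. The cause of these shifts was not tested. Calf 1's few stromal cells and the low counts of IGF1 and IGF1R limit what can be said of them.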
